A study of Homo sapiens with 24 samples.

Results

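The 8 genes described here are the ID family (ID1, ID2, ID3 and ID4), the ligands BMP2 and BMP4, and the pathway inhibitors SMAD6 and BAMBI, out of 60675 genes counted in each library. They were listed by symbol and matched to Ensembl identifiers. ID2 was chosen by its measured rise in these comparisons, so its values are a description with no test. The other 7 genes were listed for their place in the pathway, with earlier results of these data known. Their changes were tested, and counts of how many passed are a description beside the share of all genes.

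Bone morphogenetic proteins (BMPs) are secreted ligands that bind type I and type II receptor kinases at the cell surface. The receptors phosphorylate SMAD1, SMAD5 and SMAD9, which enter the nucleus with SMAD4 and switch on genes, among them the ID genes. ID proteins are helix-loop-helix proteins without a DNA-binding region. They pair with E proteins such as TCF3, TCF4 and TCF12 and keep them off DNA, and in many epithelial cells they are high in dividing cells and low in differentiated ones. SMAD6 (inside the cell) and BAMBI (a membrane pseudoreceptor without a kinase) dampen the signal, and both are themselves induced by BMP or TGF-beta signalling.

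RNA was sequenced from MDA-MB-231 and MDA-MB-436, established lines from triple-negative breast cancers, in 8 groups of 3 libraries. Each line expressed a short hairpin RNA (shRNA) labelled as directed at MDM2, set against a non-targeting shRNA, or received the MDM2 PROTAC YX-2-30, set against its vehicle DMSO. MDM2 is a ubiquitin ligase, and a PROTAC is a molecule that brings a protein to a ubiquitin ligase for degradation. All cells were cultured in DMEM with fetal bovine serum, which itself can carry BMPs. The hairpin sequences and the dose and duration of the PROTAC are not given in the sources used here, so the agents cannot be matched for dose or time. The labels do not say that replicates were separate cultures, so p-values measure the spread between these libraries, which may be technical. The 4 comparisons of a treatment with its control share no library.

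Totals ran from 33.4 to 174.7 M counts per library (M, 1e6 counts), with a median of 64.0 M. MDM2 RNA (ENSG00000135679) did not pass the test in either line: its log2 change in the libraries labelled MDM2 shRNA was 0.55 ± 0.24 (adjusted p = 0.137) for MDA-MB-231 and -0.11 ± 0.22 (adjusted p = 0.78) for MDA-MB-436. No knockdown of the transcript was thus seen, and in MDA-MB-231 all 3 of these libraries lay above their controls (24.3, 23.3 and 30.3 CPM with the MDM2 shRNA label, against 19.6, 22.4 and 11.2 CPM with the non-targeting shRNA), so changes called shRNA changes below belong to libraries known by their label alone. In PROTAC cells it was 0.26 ± 0.24 (adjusted p = 0.513) for MDA-MB-231 and -0.61 ± 0.22 (adjusted p = 0.0573) for MDA-MB-436. Exons of MDM2 overlap those of other annotated genes, so its counts are less certain. PROTAC replicate 3 of MDA-MB-436, the shallowest library, stood apart: its genes lay 0.51 (log2, root mean square) from the rest of its group, against 0.312 to 0.422 in the other libraries, and the changes of the 8 genes with the PROTAC in that line are given with and without it. Mitochondrial transcripts took 5.47 to 5.5% of counts in treated MDA-MB-436 libraries against 6.78 to 7.26% in their controls, and 5.4 to 5.92% in all MDA-MB-231 libraries. The part of this share in the results was not tested. Of the epithelial markers, KRT8 and KRT18 were at 213 CPM or more (counts per 1e6 counts of the library) in every group mean. EPCAM was at 4.0 to 19.3 CPM, while CDH1 (E-cadherin) was at or under 0.503 CPM. KRT19 was at 335 to 369 CPM in MDA-MB-231 group means and at 0.209 to 0.88 CPM in those of MDA-MB-436. The summed epithelial list (5 genes) was at 439 to 578 CPM in treated MDA-MB-436 libraries against 855 to 1120 CPM in their controls. KRT8 and KRT18 fell there with both agents. EPCAM went the other way in that line, with log2 changes of 0.58 (shRNA, adjusted p = 0.0092) and 0.60 (PROTAC, adjusted p = 0.00734). CDH1 and KRT19, both low there, rose with the shRNA (3.48, adjusted p = 0.0187, and 2.04, adjusted p = 0.0342). Both calls were lost when some single libraries were left out. With the PROTAC they were at -2.28 (adjusted p = 0.0653) and -0.33 (adjusted p = 0.752). The mesenchymal marker VIM fell in all 4 comparisons, and most of the summed mesenchymal list (3 genes) was VIM. This sum was at 3030 to 3320 CPM in treated MDA-MB-231 libraries against 4780 to 6320 CPM in their controls. For MDA-MB-436 it was at 784 to 899 CPM in treated libraries against 1020 to 1260 CPM in their controls. FN1, also on this list, went the other way in MDA-MB-231. Its log2 changes there were 0.31 (shRNA, adjusted p = 0.00198) and 0.44 (PROTAC, adjusted p = 0.000173). For MDA-MB-436 they were -0.21 (shRNA, adjusted p = 0.226) and -0.52 (PROTAC, adjusted p = 0.00694). CDH2 was at or under 0.539 CPM in MDA-MB-231 group means and fell with both agents in MDA-MB-436. Of the listed receptor genes, ESR1 and PGR stayed at or under 0.33 CPM. ERBB2 was at 69.3 to 80.4 CPM in MDA-MB-231 group means and at 40.9 to 57.7 CPM in those of MDA-MB-436. The defining marker of fibroblasts DCN had no counts, and CDH5 of endothelium was at or under 0.0493 CPM. The summed endothelial list (4 genes, most of it KDR) was at 2.42 to 5.14 CPM in treated MDA-MB-436 libraries against 6.27 to 9.46 CPM in their controls, and its part in the results was not tested. The summed leukocyte list (3 genes) was also lower in treated MDA-MB-436 libraries, at 4.78 to 7.53 CPM against 7.82 to 15.0 CPM in their controls, most of it CD14. The summed fibroblast list (4 genes, nearly all COL1A1) was at 27.4 to 31.4 CPM in treated MDA-MB-231 libraries against 14.2 to 18.2 CPM in their controls. The part of these lists in the results was not tested.

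Promoter sequences from RefSeq (GRCh38.p14) are shown for ID1, SMAD6 and BAMBI, since each passed the test in at least 1 line below and is known as a target of SMAD proteins. Each runs 5' to 3' and ends before the first base that GENCODE 29 places in an exon of the gene. Capitals mark GGCGCC, a motif bound by SMAD1 and SMAD5, and GTCT or its complement AGAC, the short SMAD motif.
ID1 (chr20:31605039-31605282, plus strand): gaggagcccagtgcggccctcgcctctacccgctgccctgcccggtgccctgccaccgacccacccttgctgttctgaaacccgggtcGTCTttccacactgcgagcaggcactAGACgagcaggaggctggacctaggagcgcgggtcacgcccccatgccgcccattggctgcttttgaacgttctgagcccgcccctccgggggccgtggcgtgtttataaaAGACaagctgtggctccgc
SMAD6 (chr15:66701986-66702227, plus strand): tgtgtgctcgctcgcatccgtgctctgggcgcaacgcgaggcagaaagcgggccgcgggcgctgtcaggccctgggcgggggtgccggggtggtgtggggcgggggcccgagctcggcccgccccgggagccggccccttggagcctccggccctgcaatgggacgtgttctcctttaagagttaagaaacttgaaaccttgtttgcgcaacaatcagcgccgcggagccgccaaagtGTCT
BAMBI (chr10:28677271-28677341, plus strand): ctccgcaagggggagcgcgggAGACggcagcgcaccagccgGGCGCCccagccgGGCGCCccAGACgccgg
The printed stretch of BAMBI held 2 GGCGCC and 2 GTCT motifs, that of ID1 held 3 GTCT motifs and no GGCGCC, and that of SMAD6 held 1 GTCT motif. Over the full 250 bases before each RefSeq start, 9 windows of 7 genes were searched on both strands: 2 of them held GGCGCC (the BAMBI window and a window of BMP4) and 8 held GTCT. Of all 35114 human promoter windows of that length, 16.4% held GGCGCC and 77.5% held GTCT. The window of ID2 held 2 GTCT and no GGCGCC, but lies mostly in an annotated exon and is not printed. A match describes letters in a window and no binding was measured. Sequence outside these windows was not searched, so a motif missing from a window may lie elsewhere near the gene.

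Among the ID genes, ID1 fell in all 4 comparisons and ID2 was higher in all 4, while ID3 and ID4 passed the test in none. ID1 (ENSG00000125968, chromosome 20, 31605283 to 31606515, GRCh38) had 24.4, 29.3 and 23.2 CPM in MDA-MB-231 libraries labelled MDM2 shRNA, against 69.5, 59.2 and 72.4 CPM with the non-targeting shRNA. In the same line it had 22.8, 20.3 and 24.2 CPM with the PROTAC, against 68.5, 65.5 and 74.0 CPM with DMSO. No treated library reached the level of any control library, and the log2 changes were -1.39 ± 0.11 (SE, adjusted p = 6.47e-06) with the shRNA and -1.63 ± 0.11 (adjusted p = 2.20e-06) with the PROTAC. For MDA-MB-436, ID1 had 6.03, 6.87 and 5.21 CPM with the MDM2 shRNA label, against 26.3, 21.9 and 23.2 CPM with the non-targeting shRNA. It had 8.01, 5.76 and 4.16 CPM with the PROTAC, against 18.1, 19.5 and 18.2 CPM with DMSO. Treated and control libraries were again apart, with log2 changes of -1.98 ± 0.20 (adjusted p = 2.60e-05) and -1.63 ± 0.20 (adjusted p = 9.01e-05). Among protein-coding genes averaging 1 CPM or more, this fall ranked 213th from the lowest of 12327 with the shRNA and 139th of 12310 with the PROTAC for MDA-MB-231. For MDA-MB-436 it ranked 21st of 12879 with the shRNA and 68th of 12904 with the PROTAC.

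**Figure D1:**
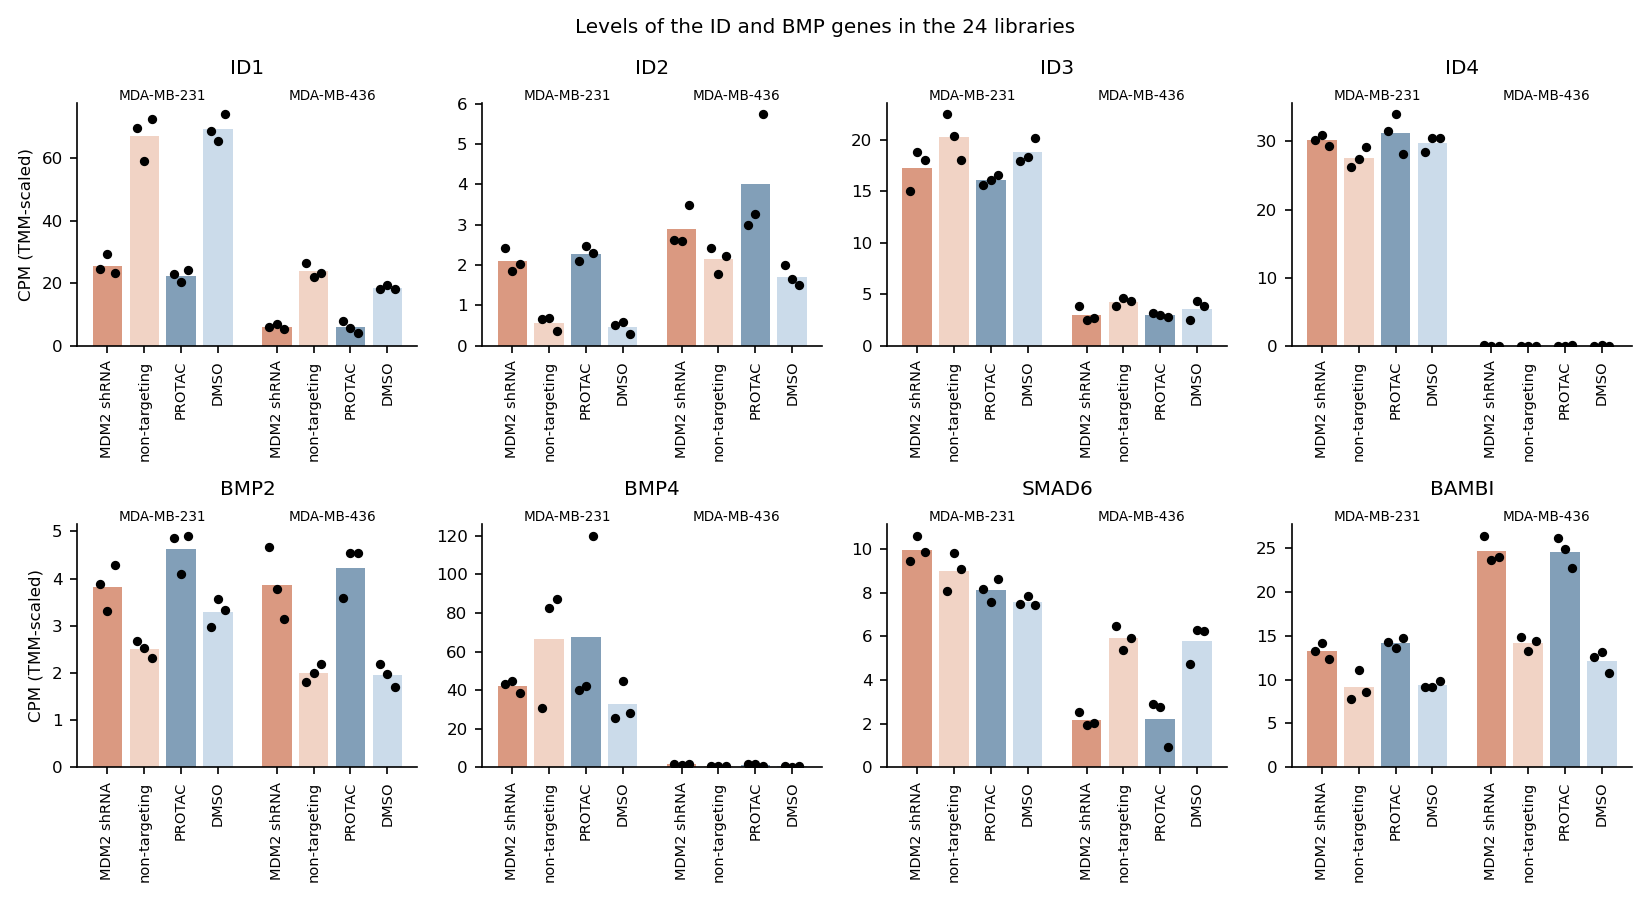
Levels of the 8 genes in CPM, with TMM-scaled library sizes, for each of 8 groups (bars, means of 3 libraries; points, libraries), with each treatment left of its control and MDA-MB-231 left of MDA-MB-436. ID1 is lower and BAMBI higher in every treated library than in every library of its control, and ID4 is near 0 in MDA-MB-436.

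ID2 (ENSG00000115738, chromosome 2, 8678845 to 8684453) was a minor transcript in both lines. It had 2.42, 1.85 and 2.02 CPM in MDA-MB-231 libraries labelled MDM2 shRNA, against 0.671, 0.685 and 0.365 CPM with the non-targeting shRNA. It had 2.1, 2.47 and 2.29 CPM with the PROTAC, against 0.519, 0.597 and 0.281 CPM with DMSO. Each of these 6 control libraries held 22 to 69 counts of ID2, and all 6 treated libraries were higher. In MDA-MB-436 it had 2.62, 2.61 and 3.48 CPM with the MDM2 shRNA label, against 2.43, 1.78 and 2.22 CPM with the non-targeting shRNA. It had 3.0, 3.27 and 5.74 CPM with the PROTAC, against 2.0, 1.65 and 1.5 CPM with DMSO. The treated libraries were above their controls here too, but the groups of the shRNA comparison nearly touched. The log2 differences were 1.86 ± 0.30 (SE) and 2.30 ± 0.31 with the shRNA and the PROTAC for MDA-MB-231, and 0.44 ± 0.26 and 1.22 ± 0.26 for MDA-MB-436. Without PROTAC replicate 3 of MDA-MB-436, which had the highest level of ID2 of all libraries, the last value was 0.87. By size, ID2 ranked 29th and 14th from the highest in MDA-MB-231 with the shRNA and the PROTAC, against 2889th and 689th in MDA-MB-436. Such ranks repeat the rise by which ID2 was chosen and add no evidence for it. Ranking needed a mean of 1 CPM, which ID2 in MDA-MB-231 reached only through treated libraries (control means 0.574 and 0.466 CPM). The difference between lines in ID2 was not tested, since ID2 was chosen for its rise. Exons of ID2 overlap the antisense gene ID2-AS1, and whether counting used the strand is not given in the sources used here. ID2-AS1 had no counts in any MDA-MB-231 library and at most 36 counts in a MDA-MB-436 library.

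ID3 (ENSG00000117318, chromosome 1, 23557918 to 23559794), which often acts together with ID1, had 15.0, 18.8 and 18.1 CPM in MDA-MB-231 libraries labelled MDM2 shRNA, against 22.5, 20.4 and 18.1 CPM with the non-targeting shRNA. It had 15.6, 16.1 and 16.6 CPM with the PROTAC, against 18.0, 18.3 and 20.2 CPM with DMSO. The PROTAC libraries were all below the DMSO libraries, yet neither change passed: both log2 changes were -0.23 ± 0.10, with adjusted p = 0.145 and 0.154. In MDA-MB-436, ID3 had 3.89, 2.5 and 2.68 CPM with the MDM2 shRNA label, against 3.83, 4.65 and 4.36 CPM with the non-targeting shRNA. With the PROTAC it had 3.18, 3.0 and 2.83 CPM, against 2.49, 4.4 and 3.9 CPM with DMSO. Both pairs of groups overlapped, with log2 changes of -0.50 ± 0.23 (adjusted p = 0.127) and -0.26 ± 0.23 (adjusted p = 0.432). The shRNA change passed when MDM2 shRNA replicate 1 of MDA-MB-436 was left out (-0.74, adjusted p = 0.0466) and in a single fit of all 24 libraries (-0.51, adjusted p = 0.0398).

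ID4 (ENSG00000172201, chromosome 6, 19837386 to 19840684), an ID family member linked to mammary stem cells and basal-like tumours, was well expressed in MDA-MB-231 and near 0 in MDA-MB-436. It had 30.2, 30.9 and 29.4 CPM in MDA-MB-231 libraries labelled MDM2 shRNA, against 26.3, 27.4 and 29.2 CPM with the non-targeting shRNA. It had 31.6, 34.0 and 28.2 CPM with the PROTAC, against 28.5, 30.5 and 30.5 CPM with DMSO. These groups lay close together, with log2 changes of 0.13 ± 0.08 (adjusted p = 0.287) and 0.07 ± 0.08 (adjusted p = 0.618). In MDA-MB-436, 9 of 12 libraries had no count and the 12 held 11 counts in all, so ID4 did not pass the filter on low counts and was not tested there. No count in the non-targeting shRNA group of MDA-MB-436 allows a level of up to 0.0106 CPM (3 counts over the group), counting error only.

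ID1 had the highest mean level per kilobase of exon of the 4 ID genes in every group, and the summed level of the family was lower in all 4 treated groups. The sum of ID1 to ID4 was 44.3 ± 3.47 CPM per kb (SD, n = 3) in MDA-MB-231 libraries labelled MDM2 shRNA, against 77.7 ± 5.53 with the non-targeting shRNA, and 41.5 ± 0.469 with the PROTAC against 79.6 ± 4.2 with DMSO. In MDA-MB-436 it was 7.9 ± 0.53 CPM per kb with the MDM2 shRNA label against 22.7 ± 1.77 with the non-targeting shRNA, and 8.34 ± 1.13 with the PROTAC against 17.9 ± 1.09 with DMSO. The makeup of the sum also differed. ID1 made up 46.9% of it in MDA-MB-231 libraries labelled MDM2 shRNA against 69.8% with the non-targeting shRNA, and 43.8% with the PROTAC against 70.6% with DMSO. In MDA-MB-436 it made up 61.9% with the MDM2 shRNA label against 85.1% with the non-targeting shRNA, and 57.2% with the PROTAC against 84.4% with DMSO. The share of ID2 in MDA-MB-231 was 2.17% with the MDM2 shRNA label against 0.339% with the non-targeting shRNA, and 2.5% with the PROTAC against 0.269% with DMSO. For MDA-MB-436 it was 16.8% with the MDM2 shRNA label against 4.28% with the non-targeting shRNA, and 22.5% with the PROTAC against 4.37% with DMSO. These shares also carry the lower sum. In MDA-MB-436, ID2 itself was at 1.32 CPM per kb with the MDM2 shRNA label against 0.972 with the non-targeting shRNA. With the PROTAC it was at 1.82 against 0.777 with DMSO. Without PROTAC replicate 3 of MDA-MB-436, the other 2 libraries of that group had sums of 7.82 and 9.63 CPM per kb, with ID1 shares of 59.7 and 67.5% and ID2 shares of 18.9 and 14.1%. ID1 stayed above ID2 per kb in every library, by 1.3 times in that replicate and by 2.67 times or more in all others.

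**Figure D2:**
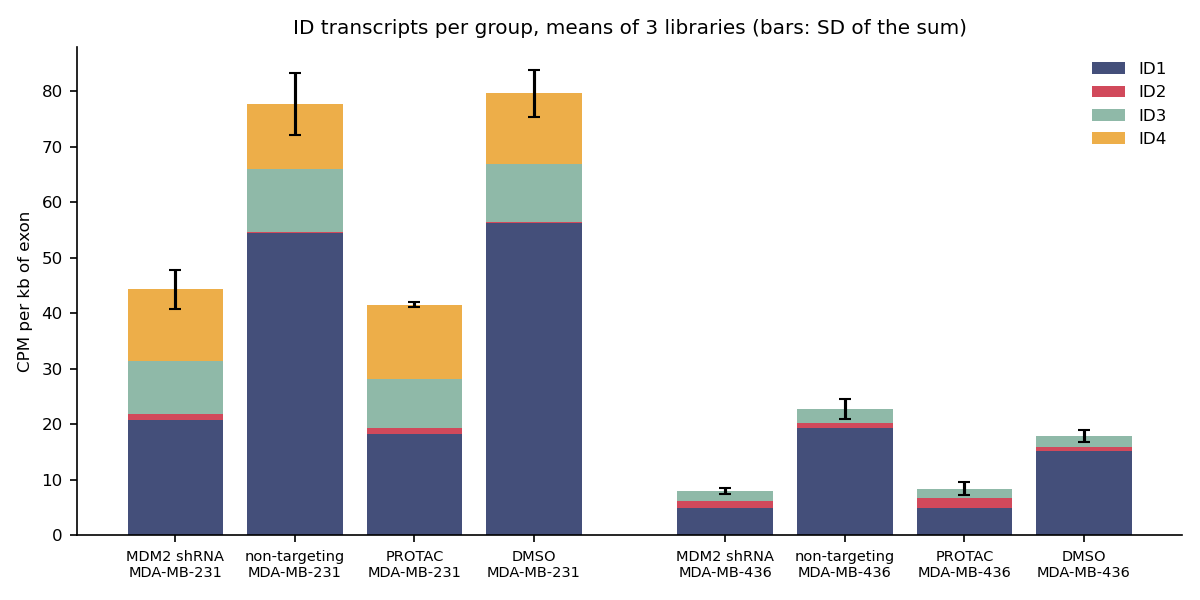
Summed level of ID1, ID2, ID3 and ID4 in CPM per kb of exon for each group (stacked means of 3 libraries; error bars, SD of the sum), with each treatment left of its control. The sum is at 7.9 to 44.3 CPM per kb in the treated groups and at 17.9 to 79.6 in the controls, with ID1 the main part of each control bar.

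Of the ligands, BMP2 rose in all 4 comparisons and BMP4 passed the test in MDA-MB-436. BMP2 (ENSG00000125845, chromosome 20, 6767664 to 6780280) had 3.88, 3.32 and 4.29 CPM in MDA-MB-231 libraries labelled MDM2 shRNA, against 2.68, 2.52 and 2.32 CPM with the non-targeting shRNA. It had 4.87, 4.09 and 4.91 CPM with the PROTAC, against 2.97, 3.56 and 3.34 CPM with DMSO. No treated library fell within its control range, and the log2 changes were 0.61 ± 0.14 (adjusted p = 0.0087) and 0.49 ± 0.14 (adjusted p = 0.0261). The PROTAC call in MDA-MB-231 was lost with no filter on low counts, in a single fit of all 24 libraries, and without DMSO replicate 1 or 3 or PROTAC replicate 1 or 3 of that line, at values from 0.42 to 0.50 (adjusted p = 0.0621 to 0.0954). In MDA-MB-436, BMP2 had 4.68, 3.79 and 3.15 CPM with the MDM2 shRNA label, against 1.81, 2.01 and 2.18 CPM with the non-targeting shRNA. It had 3.59, 4.55 and 4.55 CPM with the PROTAC, against 2.19, 1.97 and 1.71 CPM with DMSO. The groups were apart here by a wider margin, with log2 changes of 0.95 ± 0.19 (adjusted p = 0.00259) and 1.11 ± 0.19 (adjusted p = 0.000907).

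BMP4 (ENSG00000125378, chromosome 14, 53949736 to 53958761) rose in both comparisons of MDA-MB-436, where it was low, and its libraries varied widely in the other line. In MDA-MB-436 it had 1.92, 1.4 and 1.76 CPM with the MDM2 shRNA label, against 0.532, 0.648 and 0.494 CPM with the non-targeting shRNA. It had 1.49, 1.49 and 0.693 CPM with the PROTAC, against 0.617, 0.393 and 0.602 CPM with DMSO. All treated libraries were higher, PROTAC replicate 3 by little, and the log2 changes were 1.61 ± 0.33 (adjusted p = 0.00303) and 1.20 ± 0.33 (adjusted p = 0.0156). The PROTAC call was lost in a fit of the 6 libraries of the comparison, in a single fit of all 24 libraries and without DMSO replicate 2 or PROTAC replicate 1 or 2, at values from 1.03 to 1.26 (adjusted p = 0.057 to 0.074). In MDA-MB-231, BMP4 had 43.3, 44.7 and 38.6 CPM with the MDM2 shRNA label, against 30.6, 82.3 and 87.0 CPM with the non-targeting shRNA. It had 39.9, 42.2 and 120 CPM with the PROTAC, against 25.3, 44.7 and 28.3 CPM with DMSO. These groups overlapped, with log2 changes of -0.66 ± 0.46 (adjusted p = 0.37) and 1.04 ± 0.46 (adjusted p = 0.141), and the second was 0.33 without PROTAC replicate 3 of MDA-MB-231.

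Of the inhibitors, BAMBI rose in all 4 comparisons and SMAD6 fell in MDA-MB-436. BAMBI (ENSG00000095739, chromosome 10, 28677342 to 28682939) had 13.3, 14.2 and 12.4 CPM in MDA-MB-231 libraries labelled MDM2 shRNA, against 7.75, 11.1 and 8.53 CPM with the non-targeting shRNA. It had 14.3, 13.6 and 14.7 CPM with the PROTAC, against 9.13, 9.18 and 9.88 CPM with DMSO. All treated libraries were above their controls, with log2 changes of 0.54 ± 0.12 (adjusted p = 0.00816) and 0.60 ± 0.12 (adjusted p = 0.00473). In MDA-MB-436, BAMBI had 26.4, 23.6 and 24 CPM with the MDM2 shRNA label, against 14.9, 13.3 and 14.4 CPM with the non-targeting shRNA. It had 26.1, 24.9 and 22.7 CPM with the PROTAC, against 12.6, 13.1 and 10.7 CPM with DMSO. The groups were well apart, with log2 changes of 0.80 ± 0.11 (adjusted p = 0.000152) and 1.02 ± 0.11 (adjusted p = 2.52e-05).

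SMAD6 (ENSG00000137834, chromosome 15, 66702228 to 66782848), an inhibitory SMAD that blocks BMP receptors and SMAD1, had 2.53, 1.94 and 2.03 CPM in MDA-MB-436 libraries labelled MDM2 shRNA, against 6.47, 5.37 and 5.91 CPM with the non-targeting shRNA. It had 2.9, 2.75 and 0.942 CPM with the PROTAC, against 4.73, 6.29 and 6.26 CPM with DMSO. The treated libraries were all lower, with log2 changes of -1.45 ± 0.33 (adjusted p = 0.00542) and -1.37 ± 0.33 (adjusted p = 0.00702). In MDA-MB-231 it had 9.45, 10.6 and 9.86 CPM with the MDM2 shRNA label, against 8.05, 9.83 and 9.07 CPM with the non-targeting shRNA. It had 8.14, 7.57 and 8.6 CPM with the PROTAC, against 7.48, 7.82 and 7.41 CPM with DMSO. These groups overlapped, with log2 changes of 0.15 ± 0.10 (adjusted p = 0.323) and 0.10 ± 0.10 (adjusted p = 0.544).

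**Figure D3:**
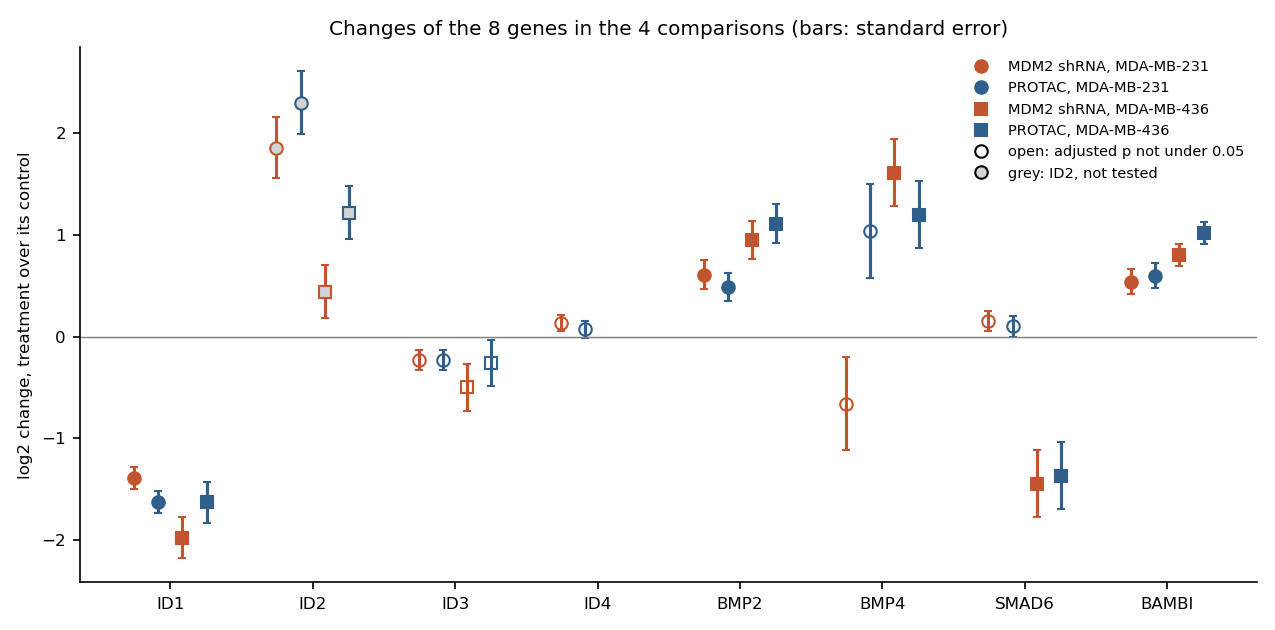
Log2 change (treatment over its control) of each gene in the 4 comparisons, with standard errors; filled symbols passed the test, open ones did not, and ID2, in grey, was not tested. ID1 lies between -1.98 and -1.39 and BAMBI between 0.54 and 1.02 in all 4, while SMAD6 is near 0 in MDA-MB-231 and at -1.45 and -1.37 in MDA-MB-436.

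Without PROTAC replicate 3 of MDA-MB-436, the PROTAC changes in that line were -1.44 for ID1 (adjusted p = 0.000103), 1.06 for BMP2 (adjusted p = 0.00267), 1.47 for BMP4 (adjusted p = 0.00159), -1.03 for SMAD6 (adjusted p = 0.00145) and 1.07 for BAMBI (adjusted p = 3.72e-05). The same 5 genes passed with and without it. ID3 was at -0.23 (adjusted p = 0.563) without it.

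Counted over the 7 tested genes of MDA-MB-231, 2 rose and 1 fell with the shRNA, where 22.7% of the 20675 genes tested passed (11.1% higher, 11.6% lower). With the PROTAC, 2 rose and 1 fell as well, where 22.6% passed (11.1% higher, 11.5% lower). The treated and control libraries did not overlap for 4 of the 7 with each agent, against 39.0% of all genes with the shRNA and 39.1% with the PROTAC. For MDA-MB-436, where 6 of the 7 were kept, 3 rose and 2 fell with the shRNA, where 30.4% of the 22663 genes tested passed (16.0% higher, 14.4% lower). With the PROTAC, 3 rose and 2 fell, where 32.4% passed (17.3% higher, 15.1% lower). Libraries did not overlap for 5 of the 6 with each agent, against 52.0% of all genes with the shRNA and 42.3% with the PROTAC. The median log2 change over the kept genes of the 7 was 0.13 with the shRNA and 0.10 with the PROTAC for MDA-MB-231, and 0.15 and 0.38 for MDA-MB-436, against medians of all genes of 0.01, -0.01, 0.04 and 0.04.

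The shRNA and PROTAC effects were set against each other within each line, as the PROTAC change minus the shRNA change. Of the 7 tested genes, 0 passed for MDA-MB-231 and 0 for MDA-MB-436 (edgeR), where 0.00484% and 0.00441% of all genes passed, 1 gene in each line and lower in both. Over all genes, 977 and 1230 had an unadjusted p under 0.05, and DESeq2 called 36 and 35. For MDA-MB-436 the second of these counts, 1230, was 2631 without PROTAC replicate 3 (5 genes called) and 2203 without PROTAC replicate 2 (25 genes called). For MDA-MB-231, leaving out single libraries gave 0 to 6 genes called, and for MDA-MB-436 leaving out the others gave 1 to 5. For ID1 the difference was -0.24 (95% interval -0.58 to 0.09) in MDA-MB-231 and 0.35 (-0.27 to 0.96) in MDA-MB-436. For BAMBI it was 0.05 (-0.33 to 0.43) and 0.22 (-0.11 to 0.55), and for BMP2 -0.12 (-0.55 to 0.31) and 0.16 (-0.42 to 0.75). SMAD6 in MDA-MB-436 gave 0.08 (-0.92 to 1.07), a wide interval. BMP4 in MDA-MB-231 gave 1.70 (0.26 to 3.14), with an unadjusted p of 0.025 and adjusted p = 0.974. These intervals leave room for moderate differences between the agents.

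The lines differed in the control levels of these genes, comparing the 6 control libraries of MDA-MB-436 with the 6 of MDA-MB-231 in a fit of all 24 libraries. All 7 tested genes passed, where 66.8% of 24719 genes did (35.9% higher, 30.9% lower): BAMBI was higher in MDA-MB-436 and the other 6 lower. ID1 averaged 20.8 ± 3.38 CPM (SD, n = 6) in MDA-MB-436 and 69.6 ± 5.44 CPM in MDA-MB-231. ID3 averaged 3.87 ± 0.789 CPM in MDA-MB-436 and 20.0 ± 1.82 CPM in MDA-MB-231. The gap was wider for BMP4, at 0.537 ± 0.0907 CPM in MDA-MB-436 and 50.7 ± 28.4 CPM in MDA-MB-231. ID4 had 5 counts over the 6 libraries of MDA-MB-436 and 12596 over the 6 of MDA-MB-231. BMP2, SMAD6 and BAMBI differed less, with log2 differences (MDA-MB-436 minus MDA-MB-231) of -0.59 ± 0.12 (adjusted p = 0.00026), -0.55 ± 0.18 (adjusted p = 0.0106) and 0.45 ± 0.09 (adjusted p = 0.000104). ID2 went the other way from the rest of its family, at 1.9 ± 0.367 CPM in MDA-MB-436 and 0.53 ± 0.169 CPM in MDA-MB-231, and was not tested. Other pathway genes lay either way, with levels scaled within each line. With the non-targeting shRNA, the ligand BMP5 had 40.3 CPM in MDA-MB-436 and 0.0195 CPM in MDA-MB-231. The BMP target MSX1 had 86.4 and 0.346 CPM, while the antagonist NOG had 0.59 and 72.6 CPM.

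The treatment effects were then compared between lines, as the change in MDA-MB-436 minus that in MDA-MB-231. With the shRNA, 2 of the 7 passed, where 19.7% of genes did (9.94% higher, 9.77% lower). SMAD6 responded lower in MDA-MB-436 by -1.61 ± 0.36 (adjusted p = 0.00297) and BMP4 higher by 2.26 ± 0.60 (adjusted p = 0.01), a call that limma voom did not make (2.07, adjusted p = 0.373). With the PROTAC, 1 of the 7 passed, where 22.3% of genes did (11.8% higher, 10.5% lower). This was SMAD6 at -1.44 ± 0.36 (adjusted p = 0.00626), and without PROTAC replicate 3 of MDA-MB-436 it was -1.09 (adjusted p = 0.000466). The fall of ID1 did not pass as different between lines, at -0.61 ± 0.24 (95% interval -1.11 to -0.11, adjusted p = 0.0869) with the shRNA and 0.01 ± 0.25 (-0.50 to 0.52) with the PROTAC. The shRNA difference of ID1 passed with DESeq2 (-0.58, adjusted p = 0.0465), with limma voom (-0.60, adjusted p = 0.0413) and without PROTAC replicate 3 of MDA-MB-436 (-0.61, adjusted p = 0.0191). The rises of BMP2 and BAMBI differed by 0.62 ± 0.24 (adjusted p = 0.0741) and 0.43 ± 0.17 (adjusted p = 0.0793) with the PROTAC, neither past the threshold.

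The rest of the pathway was read from 6 lists of ligands, receptors, SMADs with their SMURF ligases, secreted antagonists, further BMP targets and E proteins, 54 genes without the 8 above. In MDA-MB-231, 40 were kept: 3 rose and 9 fell with the shRNA (30.0% called), and 6 rose and 7 fell with the PROTAC (32.5%), beside 22.7% and 22.6% of all genes. In MDA-MB-436, 46 were kept: 4 rose and 10 fell with the shRNA, and 6 rose and 8 fell with the PROTAC (30.4% each), beside 30.4% and 32.4% of all genes. The medians over the kept genes, 0.02 and -0.02 for MDA-MB-231 and 0.0 and 0.04 for MDA-MB-436, lay close to those of all genes.

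Receptors that moved all fell. Of 9 kept receptor genes, 5 fell with the shRNA and 4 with the PROTAC in MDA-MB-231, and 4 fell with each agent in MDA-MB-436, while none rose. Of all genes, 11.6% and 11.5% fell in MDA-MB-231 and 14.4% and 15.1% in MDA-MB-436. The call of ACVR1, a type I receptor among the 5, was lost when any of 5 of the 6 libraries was left out (non-targeting replicate 1, 2 or 3 or MDM2 shRNA replicate 1 or 2, -0.32 to -0.27, adjusted p = 0.0638 to 0.0922). BMPR2, the type II BMP receptor, had 43.1 ± 3.47 CPM (SD, n = 3) in MDA-MB-231 libraries labelled MDM2 shRNA against 60.2 ± 2.25 CPM with the non-targeting shRNA, a log2 change of -0.48 ± 0.08 (adjusted p = 0.00128). The PROTAC gave -0.42 ± 0.08 in that line, and MDA-MB-436 had -0.50 ± 0.10 with the shRNA and -0.71 ± 0.11 with the PROTAC, all past the threshold, the last at -0.83 without PROTAC replicate 3. ENG (endoglin), a co-receptor for TGF-beta family ligands, had 64.9 ± 1.39 CPM in MDA-MB-436 libraries labelled MDM2 shRNA against 120 ± 1.22 CPM with the non-targeting shRNA (log2 change -0.89 ± 0.07, adjusted p = 5.70e-06), and also fell in the other 3 comparisons. RGMB, a BMP co-receptor, fell in all 4 as well, by -0.26 ± 0.04 and -0.22 ± 0.04 in MDA-MB-231 and -0.82 ± 0.08 and -0.88 ± 0.08 in MDA-MB-436. Exons of ENG and RGMB overlap genes on the other strand. BMPR1A, a type I receptor, fell in MDA-MB-436 (-0.80 ± 0.11 and -0.77 ± 0.11, the second at -0.89 without PROTAC replicate 3), while in MDA-MB-231 it was at -0.09 ± 0.05 with each agent (adjusted p = 0.203 and 0.2). BMPR1B, another type I receptor, named after its values were seen, fell in MDA-MB-231 (-1.06 ± 0.22 and -1.48 ± 0.23) and had values of 0.57 ± 0.21 (adjusted p = 0.057) and 0.16 ± 0.21 (adjusted p = 0.601) in MDA-MB-436.

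Among the other ligands, BMP5 was abundant in MDA-MB-436 and fell there to 18.4 ± 1.07 CPM with the MDM2 shRNA label, against 40.3 ± 3.73 CPM with the non-targeting shRNA, and to 19.9 ± 1.43 CPM with the PROTAC, against 41.0 ± 3.84 CPM with DMSO. Its log2 changes of -1.13 ± 0.10 (adjusted p = 1.05e-05) and -1.05 ± 0.10 (adjusted p = 1.79e-05) ran opposite to those of BMP2 and BMP4 in the same cells. BMP8A rose with the shRNA in MDA-MB-436 (0.73 ± 0.21, adjusted p = 0.0181), a call lost without MDM2 shRNA replicate 3 (0.61, adjusted p = 0.0863) or non-targeting replicate 2 (0.65, adjusted p = 0.0759), and its exons overlap a gene on the other strand.

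Of the intracellular genes, SMURF2, a ubiquitin ligase for SMADs and receptors, fell in all 4 comparisons. It had 243 ± 12.4 CPM in MDA-MB-231 libraries labelled MDM2 shRNA against 344 ± 18.8 CPM with the non-targeting shRNA, and 67.5 ± 1.76 CPM in MDA-MB-436 libraries labelled MDM2 shRNA against 139 ± 1.42 CPM with the non-targeting shRNA. Its log2 changes were -0.50 ± 0.06 and -0.47 ± 0.06 in MDA-MB-231 and -1.05 ± 0.07 and -1.06 ± 0.07 in MDA-MB-436, with exons that overlap CEP95 on the other strand. SMURF1, its relative, fell with the shRNA in MDA-MB-231 (-0.24 ± 0.04, adjusted p = 0.00184), and its exons overlap TRRAP on the other strand. SMAD4, the shared partner SMAD, rose in MDA-MB-436 by 0.71 ± 0.14 with the shRNA (adjusted p = 0.00281) and 0.90 ± 0.15 with the PROTAC (adjusted p = 0.000587). Exons of SMAD4 overlap those of another annotated gene on the same strand, so its counts are less certain. SMAD9, a receptor-activated SMAD and itself a BMP target, rose in PROTAC cells of MDA-MB-436 (1.41 ± 0.32, adjusted p = 0.00515), at 2.27 ± 0.966 CPM against 0.844 ± 0.146 CPM with DMSO. Without PROTAC replicate 3 it rose by 1.01 (adjusted p = 0.0118). With the shRNA in that line SMAD9 was at 0.70 ± 0.31 (adjusted p = 0.118).

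Antagonists moved both ways. FSTL3, which binds activins and some BMPs, rose in all 4 comparisons, by 0.55 ± 0.07 and 0.56 ± 0.07 in MDA-MB-231 and 0.35 ± 0.08 and 0.66 ± 0.08 in MDA-MB-436. NOG (noggin), which traps BMP2 and BMP4, fell in MDA-MB-231 to 44.7 ± 3.03 CPM with the MDM2 shRNA label, against 72.6 ± 1.56 CPM with the non-targeting shRNA, and to 43.8 ± 1.12 CPM with the PROTAC, against 75.5 ± 0.853 CPM with DMSO. FSTL1, a secreted glycoprotein that can bind BMP4, rose in MDA-MB-231 (0.20 ± 0.04 and 0.28 ± 0.04) and fell in MDA-MB-436 (-1.18 ± 0.06 and -1.30 ± 0.06), and its exons too overlap a gene on the other strand.

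Of the further targets, HEY1, a transcriptional repressor that Notch also induces, rose with the PROTAC in MDA-MB-231 (0.90 ± 0.24, adjusted p = 0.0187) and MDA-MB-436 (0.95 ± 0.26, adjusted p = 0.0153). With the shRNA it had 0.71 ± 0.23 (adjusted p = 0.0507) and 0.72 ± 0.25 (adjusted p = 0.052). The HEY1 calls were lost in MDA-MB-231 without DMSO replicate 2 or 3 or PROTAC replicate 1 or 3 (0.74 to 0.85, adjusted p = 0.0566 to 0.0753), and in MDA-MB-436 without DMSO replicate 1 (0.90, adjusted p = 0.0547) or PROTAC replicate 1 (0.70, adjusted p = 0.0685). MSX2, a homeobox gene, rose in PROTAC cells of MDA-MB-436 (1.00 ± 0.20, adjusted p = 0.00225), and by 0.89 (adjusted p = 0.00757) without PROTAC replicate 3. With the shRNA in that line MSX2 was at 0.55 ± 0.20 (adjusted p = 0.0517). TNFRSF11B (osteoprotegerin) rose with the PROTAC in MDA-MB-231 (0.68 ± 0.19, adjusted p = 0.0215) and fell with the shRNA in MDA-MB-436 (-1.05 ± 0.31, adjusted p = 0.022). The other agent gave uncalled values of the same sign in each line. These were 0.32 ± 0.18 (shRNA, MDA-MB-231, adjusted p = 0.266) and -0.81 ± 0.31 (PROTAC, MDA-MB-436, adjusted p = 0.063). The PROTAC call of TNFRSF11B was lost without DMSO replicate 1 or 3 or PROTAC replicate 1 of MDA-MB-231 (0.47 to 0.62, adjusted p = 0.0759 to 0.0874). Its shRNA call was lost without MDM2 shRNA replicate 1 (-0.76, adjusted p = 0.0558) or non-targeting replicate 2 (-0.91, adjusted p = 0.0813) of MDA-MB-436. The E proteins TCF3, TCF4 and TCF12 passed the test in none of the 4 comparisons of a treatment with its control.

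**Figure D4:**
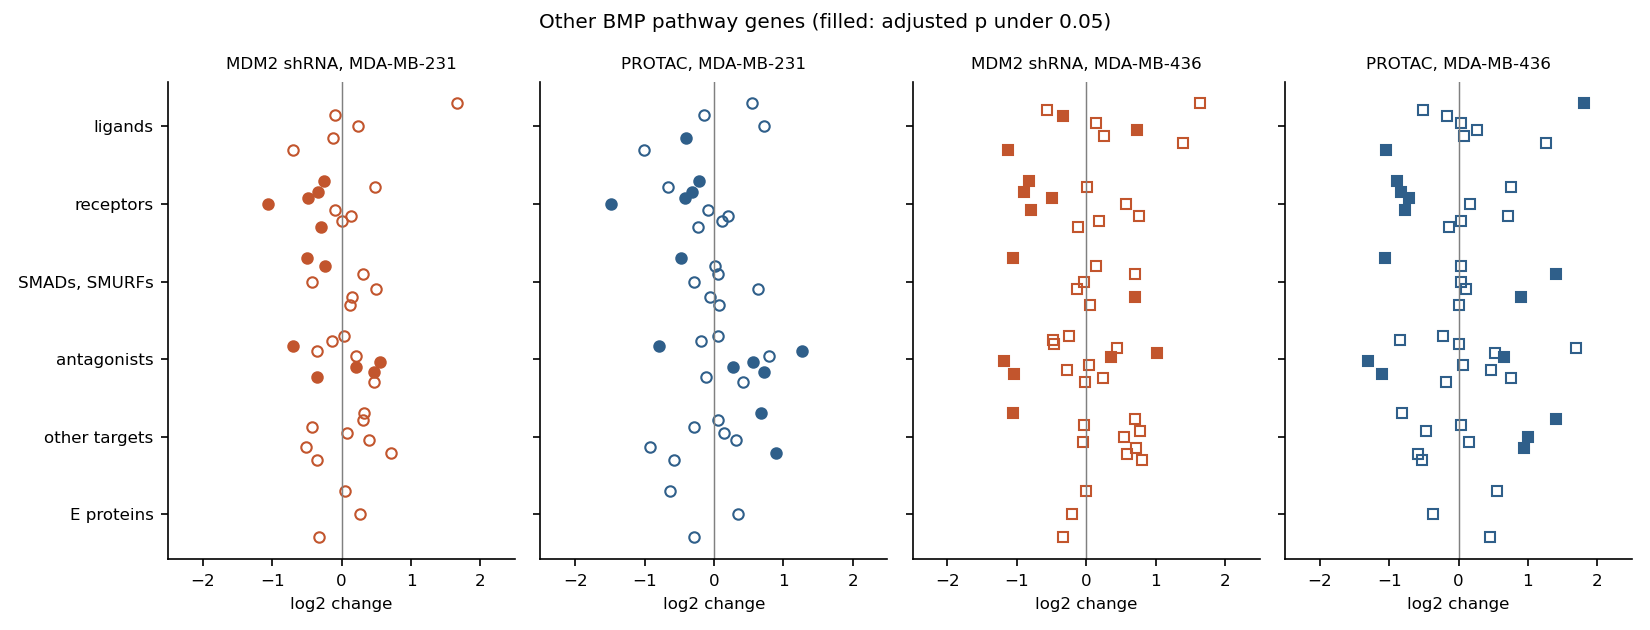
Log2 changes of the kept pathway genes other than the 8 members, by list (rows), in the 4 comparisons (panels); filled symbols had an adjusted p under 0.05. Every filled receptor lies left of 0, while filled antagonists lie on both sides.

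The 4 log2 changes of ID2 were compared with those of 11653 protein-coding genes by their root mean square difference, a description over 24 libraries. The nearest were TMEM236 (0.28), HES7 (0.38), a transcriptional repressor, and NUAK2 (0.44), an AMPK-related kinase. DUSP1 (0.45), a MAP kinase phosphatase, and MISP (0.48), a spindle and actin protein, came next. Among the other members, BAMBI ranked 308th and BMP2 372nd, followed by BMP4 at 3569th and ID3 at 9225th, while SMAD6 ranked 10807th and ID1 11580th, near the far end.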

How the data were processed

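Per the labels' protocols, TRIzol RNA went into NEBNext Ultra II libraries for HiSeq sequencing. The submitters' processing notes name GRCh38, cutadapt 2.4, StringTie, HISAT2 and edgeR; the role of each and the strand of counting are not given in the sources used here. The deposited values are counts, whole numbers for 60675 Ensembl genes per library, of which 57055 were found in GENCODE 29 (99.93% of counts). Low values pile up at multiples of 4 (1.48 times as many values at 4 as at its neighbours), so counting intervals may be too narrow.

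Genes were kept with filterByExpr of edgeR 4.0.16 and scaled by TMM, which the CPM (counts per 1e6) use. The 12 libraries of a line were fitted together with a mean per group, and treatments were set against their own controls with edgeR's quasi-likelihood test, adjusted by Benjamini and Hochberg over all genes kept (20675 for MDA-MB-231 and 22663 for MDA-MB-436), with a threshold of 0.05. PROTAC minus shRNA effects were tested in the same fits, and lines and their controls in a fit of 24 libraries (24719 genes). Standard errors are those implied by the F statistic. Levels per kb use the union of GENCODE exons. Replicates differed by more than counting noise in every group, so no library was counted as a copy.

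The members and lists were chosen with earlier results of these data known. The naming rule takes every member, MDM2, up to 4 called genes per list by smallest adjusted p, and the 5 genes nearest to ID2 with at least 1 CPM in both lines; exceptions are marked. The scripts were tested on simulated counts, with changes planted in genes drawn from all those kept. Planted 2-fold changes were called for 52% (shRNA) and 48% (PROTAC) of genes for MDA-MB-231, and for 30 and 34% for MDA-MB-436. For 1.5-fold changes these shares were 32, 38, 14 and 14%. These shares are pooled over planted genes of all levels. Through the adjustment over all genes, they also depend on how many genes were planted, which is not stated here. They are thus not the chance of a call for any gene named above, which may be higher or lower. A gene that did not pass may still have changed. Alternatives were RLE size factors, no scaling, no filter, 1 CPM in 3 libraries, DESeq2 1.42.0, limma 3.58.1 (voom), a replicate block, counts divided by 4, other sets of libraries in the fit and each library left out. R 4.3.3 and Python 3.11.15 were used. Protein and miRNA sequences were not used here. A marker gene is not reported here.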

Additional observations from a re-analysis of the deposited data

Results flagged for a closer look

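These results differed between the lines by a test of the difference (change in MDA-MB-436 minus change in MDA-MB-231, edgeR, fit of all 24 libraries). With the shRNA, BMP4 differed by 2.26 (adjusted p = 0.01) and SMAD6 by -1.61 (adjusted p = 0.00297). Among the receptor genes, ENG differed by -0.56, RGMB by -0.57 and BMPR1A by -0.73, while BMPR1B, named after its values were seen, differed the other way by 1.62 (adjusted p = 0.000825), and by 1.65 (adjusted p = 0.000651) with the PROTAC. SMURF2 differed by -0.56, SMURF1 by 0.36 and SMAD4 by 0.55 (adjusted p = 0.0483). FSTL1, which rose in MDA-MB-231 and fell in MDA-MB-436, differed by -1.39 (adjusted p = 5.38e-11), and TNFRSF11B by -1.39 (adjusted p = 0.00844). With the PROTAC, SMAD6 differed by -1.44 (adjusted p = 0.00626), ENG by -0.52, RGMB by -0.66, BMPR1A by -0.68, SMURF2 by -0.59, SMAD4 by 0.95, SMAD9 by 1.34 (adjusted p = 0.0116), FSTL1 by -1.58 (adjusted p = 1.36e-11) and TNFRSF11B by -1.50 (adjusted p = 0.00443).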

How the results depend on the processing

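Of 1003 recomputed changes of the 8 genes, 954 kept their direction and their side of the threshold or, for ID2, moved by less than 1 SD, 12 lost a call, 12 gained a call, 21 changed sign and 4 of ID2 moved by more. All 21 sign changes were of uncalled differences between agents or lines near 0. For ID3 between agents in MDA-MB-231 they were -0.01 with no scaling, -0.00 at 1 CPM, and -0.09 to 0.09 when single libraries were left out. Leaving out single libraries gave -0.12 to 0.01 for ID4, -0.11 to 0.03 for SMAD6 and -0.10 to 0.17 for BAMBI in MDA-MB-231, and -0.15 to 0.42 for SMAD6 in MDA-MB-436. Between lines with the PROTAC, ID1 was at -0.02 with RLE, -0.01 with no filter and with DESeq2, and -0.00 at 1 CPM and with the replicate block, and ID3 at 0.05 with no scaling, 0.01 with limma voom and 0.04 without PROTAC replicate 3 of MDA-MB-436. The number of the 7 genes whose PROTAC effect differed between lines was 1, against 3 with no scaling, 3 at 1 CPM and 3 with DESeq2 (BMP2 and BAMBI added), and 2 without PROTAC replicate 3 of MDA-MB-436, an alternative chosen after seeing the data. With no scaling, the median of all genes moved to 0.11, 0.08, 0.22 and 0.21 (shRNA and PROTAC in MDA-MB-231, then in MDA-MB-436), and 68.0, 65.6, 72.8 and 70.9% of calls were higher, against 48.8, 49.1, 52.5 and 53.4% with TMM. Same-numbered replicates did not deviate together (r from -0.06 to 0.08 over 12 pairs), so numbers do not pair the samples; with a replicate block, 4274, 4302, 6530 and 6877 genes were called, against 4694, 4668, 6896 and 7334 without it, and the count of the 7 genes called did not change. Low counts limit ID2 in MDA-MB-231 controls, BMP4 in MDA-MB-436 and ID4 in MDA-MB-436.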
